A study of Mus musculus with 6 samples.

Results

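The Id genes, the inhibitory Smad genes and the BMP receptor-regulated Smad genes were followed in primary cells that the labels give as endothelial cells (ECs) of C57BL/6 mouse skin. The 10 genes were Id1, Id2, Id3 and Id4, the inhibitors Smad6, Smad7 and Bambi, and the signal transducers Smad1, Smad5 and Smad9, out of 55487 gene identifiers in the count table. They were selected on their place in the BMP pathway and on measured values of this same comparison, the counts in high against normal glucose, so their differences are given as a description and no P value is given for them. Cells came from the skin of mice aged 2 to 3 months, with 4 to 6 animals used for an isolation, and were enriched with magnetic beads against CD31. Cultures were kept for 48 hours in medium with normal glucose (5 mmol/L, 3 samples) or high glucose (20 mmol/L, 3 samples), with no other treatment and no genetic change named in either group. The paper counts its replicates as mice, whereas the labels tie no sample to an animal or isolation, so the tests below measure the spread between these samples. Replicates of a group differed by more than counting noise, as chi-square values over genes, divided by their degrees of freedom, lay between 9.76 and 61.2.

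Bone morphogenetic proteins (BMPs) bind pairs of serine/threonine kinase receptors, which phosphorylate Smad1, Smad5 and Smad9, and these enter the nucleus with the shared partner Smad4. The Id genes are among the best known genes switched on by these Smads. Id proteins carry a helix-loop-helix domain without the basic part that touches DNA, so they hold E proteins and related basic helix-loop-helix (bHLH) factors away from their sites. Smad6, Smad7 and Bambi are induced by the same signals and dampen them, Smad6 and Smad7 inside the cell and Bambi as a receptor-like protein without a kinase. In ECs, Id1 and Id3 are known as genes that respond to BMP9 and BMP10 through the receptor ALK1.

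The libraries held between 120192466 and 146881356 counts, and 3 counts corresponded to 0.0204 to 0.0250 CPM (counts relative to the library total). The biological coefficient of variation between replicates, estimated by edgeR over 19015 tested genes, was 8.44%. Pecam1, which encodes CD31, had just 9 to 19 counts in a library. It did not pass edgeR's quasi-likelihood test (log2 fold change -0.31, adjusted P = 0.59). Cdh5, another gene that marks ECs, had 231 to 242 counts in normal glucose and 91 to 130 in high glucose. It was lower by the same test (-1.03, adjusted P = 0.000139). Kdr, which encodes the receptor VEGFR2, had 576 to 777 counts and did not pass (0.15, adjusted P = 0.252). The fibroblast marker Pdgfra was higher (0.46, adjusted P = 0.000131). Of 20 endothelial markers, 6 (Tie1, Emcn, Cldn5, Sox17, Robo4 and Tal1) stayed under 10 counts in each library, whereas Col1a1 alone, a fibroblast collagen, had at least 1007482 counts. Several defining markers of the labelled cell type were thus absent or near 0 while others were present, and the samples are called the cultures here. The summed CPM of 14 fibroblast markers was 39423 to 42583 in normal glucose and 72027 to 76977 in high glucose. That of the 20 endothelial markers was 86.0 to 88.3 and 68.0 to 68.8. In normal glucose Pecam1, Cdh5 and Kdr had means of 0.128, 1.80 and 4.96 CPM, so most of that sum comes from other genes. Of 13 tested endothelial markers 4 were lower and 3 higher, and of 14 fibroblast markers 2 were lower and 11 higher. Among all tested genes 14.5% were lower and 16.9% higher. These sums moved with glucose alongside the genes described below but do not describe each marker. Their part in the differences of those genes was not tested. In RNA from whole cultures, fewer cells that express a gene and less RNA per cell cannot be told apart.

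The 4 Id genes encode closely related helix-loop-helix domains, so the first matter was whether their counts can be kept apart. The coding sequence for the loop and second helix is shown. It was picked from 119 ungapped windows of 90 bases along the Id1 coding sequence, taken every 3 bases. No window had more bases in common with the other 3 genes (205 summed over them). The overlapping window of coding bases 217 to 306 had as many. Capitals mark the bases that all 4 genes share, which were 52 of the 90 positions. Sequences and positions are those of GENCODE transcripts on GRCm38, 5′ to 3′ on the coding strand.
Id1, chr2:152736551-152736640, + strand, exon 1: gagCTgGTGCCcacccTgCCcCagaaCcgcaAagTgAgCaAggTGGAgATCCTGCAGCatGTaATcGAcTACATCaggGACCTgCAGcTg
Id2, chr12:25095780-25095869, − strand, exon 2: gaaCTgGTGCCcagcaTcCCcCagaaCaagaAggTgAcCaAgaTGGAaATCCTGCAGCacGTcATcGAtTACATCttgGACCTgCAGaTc
Id3, chr4:136144035-136144124, + strand, exon 1: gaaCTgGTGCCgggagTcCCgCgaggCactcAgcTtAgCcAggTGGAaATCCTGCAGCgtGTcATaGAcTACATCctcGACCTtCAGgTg
Id4, chr13:48261726-48261815, + strand, exon 1: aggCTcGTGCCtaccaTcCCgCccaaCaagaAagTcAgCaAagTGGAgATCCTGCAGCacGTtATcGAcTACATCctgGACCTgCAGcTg
Id1 matched Id2 and Id4 at 72 of the 90 positions and Id3 at 61. Despite this likeness, no stretch of 75 bases, the read length named in the methods, was shared between any of the 4 Id genes. The same held for Smad1, Smad5, Smad6 and Smad9 and for Smad7 and Bambi, whose sequences are not shown. Of the 10 genes, 8 shared no such stretch with any annotated gene. Id4 shared 36 of its 3775 stretches with Gm49291, a noncoding gene on the opposite strand that had between 0 and 30 counts in a library. Smad5 shared 26 of 7556 with Gm27301, a small RNA gene inside it with 1 to 3 counts. The counts of the 10 genes were therefore not open to exchange among family members on reads of that length. The labels name another sequencing platform than the methods do, so the length may not be that of these libraries.

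Id1 showed the largest difference of the 10 genes. Id1 (ENSMUSG00000042745, chromosome 2, 152736251 to 152737410, GRCm38) had 85.7, 67.4 and 75.9 CPM in normal glucose replicates 1, 2 and 3 and 24.8, 24.0 and 21.7 CPM in high glucose. Each high glucose sample lay below the lowest normal glucose sample. The means were 76.3 ± 9.15 and 23.5 ± 1.57 CPM (SD, n = 3 each), CPM here and below being scaled with edgeR's TMM factors. This is a log2 fold change of -1.70 (SE 0.088, 95% interval -1.90 to -1.50), a level that was 69.2% lower. Of the 19015 tested genes, 117 had a more negative log2 fold change than Id1.

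Id4 came next. Id4 (ENSMUSG00000021379, chromosome 13, 48261228 to 48266026) is a member best known from neural and mammary cells. It had 20.0, 15.8 and 14.8 CPM in normal glucose and 8.21, 7.65 and 7.80 CPM in high glucose. All 3 samples in high glucose were below those in normal glucose, where replicate 1 stood highest, as it did for Id1. The log2 fold change was -1.10 (SE 0.107, 95% interval -1.33 to -0.86), or 53.2% lower, and 507 tested genes had a more negative value. The transcript overlaps 2 noncoding genes on the opposite strand, A330033J07Rik and Gm49291. The counts do not state a strand, but each of the 2 had at most 37 counts in a library against 890 to 2508 for Id4.

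Id3 had by far the highest level and a small difference. Id3 (ENSMUSG00000007872, chromosome 4, 136143497 to 136145755) had 346, 304 and 329 CPM in normal glucose and 294, 287 and 288 CPM in high glucose. The groups did not overlap, but only 9.63 CPM separated the lowest normal glucose sample from the highest one in high glucose. The log2 fold change was -0.17 (SE 0.057, 95% interval -0.30 to -0.04), or 11.2% lower. Once the dependence of each library on base composition and length was removed, it was -0.10.

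Id2, an Id gene with broad expression and known roles in lymphoid cells, showed no separation. Id2 (ENSMUSG00000020644, chromosome 12, 25093799 to 25097140) had 22.3, 21.6 and 19.9 CPM in normal glucose and 18.9, 20.6 and 20.3 CPM in high glucose. The ranges of the groups overlapped. The log2 fold change was -0.09 (SE 0.063), and its 95% interval of -0.23 to 0.05 spans a fall as well as a slight rise. With library size as the only scaling it was -0.21 and passed the threshold. The 4 Id genes thus ranged from a difference of 6.14% to one of 69.2%, all with a lower mean in high glucose.

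**Figure D1:**
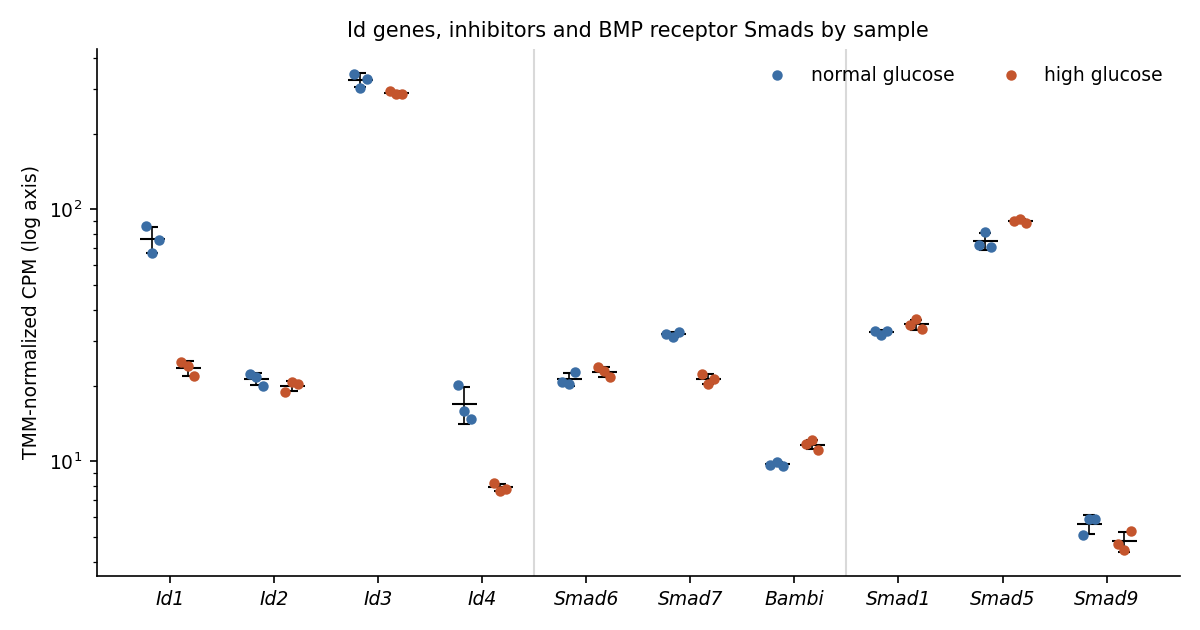
TMM-normalized CPM on a log axis for each of the 10 genes, with 1 point for each of the 3 normal glucose (blue) and 3 high glucose (orange) samples and black bars for the mean ± SD. The groups lie clearly apart for Id1, Id4 and Smad7, lie close together for Id3, and overlap for Id2, Smad6 and Smad9.

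Smad7 was the inhibitor with a lower level. Smad7 (ENSMUSG00000025880, chromosome 18, 75367529 to 75395935) recruits ubiquitin ligases to TGF-beta and BMP receptors and blocks both arms of Smad signalling. It had 31.9, 31.3 and 32.7 CPM in normal glucose and 22.3, 20.4 and 21.2 CPM in high glucose. The groups were far apart for their spread, with SDs of 0.702 and 0.962 CPM around means of 31.9 and 21.3 CPM. The log2 fold change was -0.59 (SE 0.055, 95% interval -0.71 to -0.46), which is 33.4% lower.

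Smad6, the inhibitor that acts mainly on the BMP arm, did not share this pattern. Smad6 (ENSMUSG00000036867, chromosome 9, 63953076 to 64022059) had 20.6, 20.2 and 22.7 CPM in normal glucose and 23.6, 22.9 and 21.6 CPM in high glucose. The ranges overlapped and the mean was 1.07 times as high in high glucose. Its log2 fold change of 0.10 (SE 0.063, 95% interval -0.04 to 0.24) changed sign, to -0.01, with library size as the only scaling.

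Bambi was the inhibitor with a higher level. Bambi (ENSMUSG00000024232, chromosome 18, 3507923 to 3516404) had 9.67, 9.97 and 9.60 CPM in normal glucose and 11.7, 12.1 and 11.1 CPM in high glucose. The groups did not overlap, and the log2 fold change was 0.26 (SE 0.067, 95% interval 0.11 to 0.41). The 3 inhibitors therefore differed in direction, with Smad7 lower, Bambi higher and Smad6 overlapping between the groups. With library size as the only scaling the difference of Bambi was 0.14 and no longer passed the threshold.

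Among the receptor-regulated Smads, Smad5 had the clearest difference. Smad5 (ENSMUSG00000021540, chromosome 13, 56703010 to 56742377) had 71.9, 81.3 and 70.6 CPM in normal glucose and 90.3, 91.5 and 88.7 CPM in high glucose. All samples in high glucose were above the highest in normal glucose, at a log2 fold change of 0.27 (SE 0.062, 95% interval 0.13 to 0.41). Replicate 2 in normal glucose was the nearest to the high glucose samples, and without it the log2 fold change was 0.33. With library size as the only scaling Smad5 no longer passed the threshold. Its values over the 18 other fits ran from 0.16 to 0.33.

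Smad1, which carries the same signal as Smad5, differed little. Smad1 (ENSMUSG00000031681, chromosome 8, 79338395 to 79399518) had 32.9, 31.8 and 32.8 CPM in normal glucose and 34.7, 36.7 and 33.5 CPM in high glucose. The groups did not overlap, but their nearest samples were 0.588 CPM apart. The log2 fold change of 0.10 (SE 0.054, 95% interval -0.02 to 0.22) changed sign, to -0.01, with library size as the only scaling.

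Smad9, the least expressed of the 3 and the one with weaker transcriptional activity, also overlapped between groups. Smad9 (ENSMUSG00000027796, chromosome 3, 54755582 to 54801257) had 5.10, 5.89 and 5.92 CPM in normal glucose and 4.69, 4.46 and 5.30 CPM in high glucose. Replicate 3 in high glucose lay above replicate 1 in normal glucose. The log2 fold change was -0.23 (SE 0.100, 95% interval -0.45 to -0.003), and it did not pass the threshold. It did pass in 4 of the 18 other fits, among them those without normal glucose replicate 1 (-0.31), with library size as the only scaling (-0.34) and after removal of GC and length trends (-0.28). The genes of the 3 Smads that receive the BMP signal had means that differed by 20.8% at most. Id1 and Id4 were less than 0.5 of their normal glucose level. These are RNA levels, and any link between them was not tested.

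**Figure D2:**
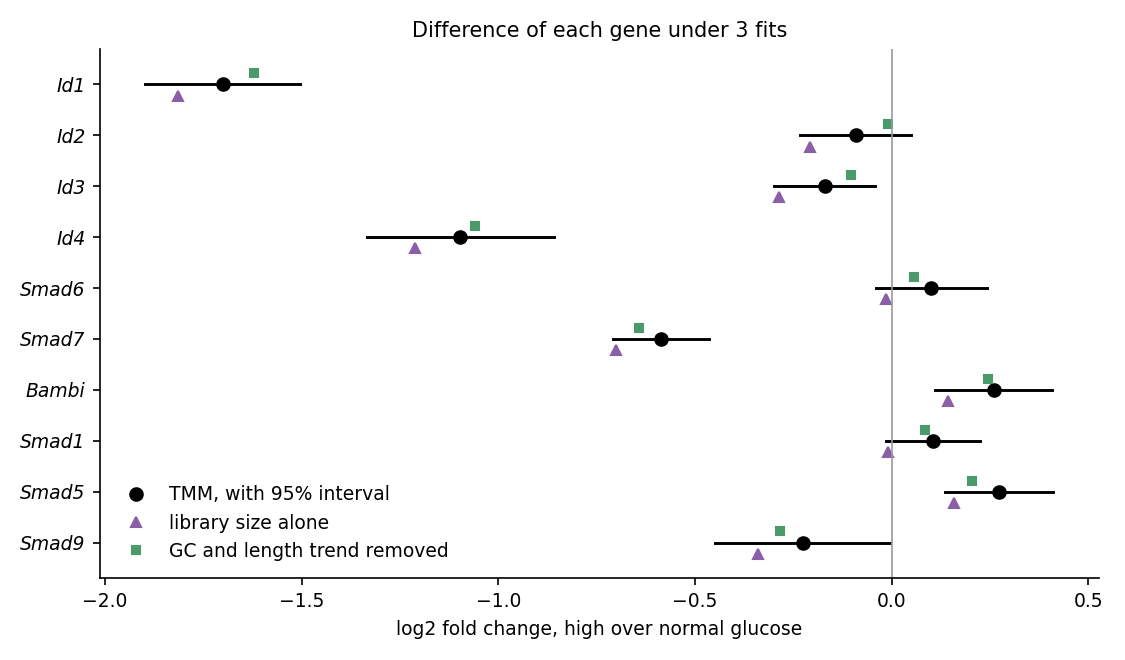
Log2 fold change of high over normal glucose for each gene, with black points and lines for the estimate with TMM factors and its 95% interval, triangles for library size alone and squares after removal of GC and length trends. Id1, Id4 and Smad7 stay well below 0 in all 3 fits, while Smad6 and Smad1 cross 0 with library size alone.

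All 10 genes passed the filter on low counts. Of them, 6 passed an adjusted P value of 0.05 in edgeR's quasi-likelihood test, where 31.4% of all tested genes did. Those lower were Id1, Id3, Id4 and Smad7 (14.5% of all tested genes were lower past the threshold), and those higher were Smad5 and Bambi (16.9% of all were higher). The samples did not overlap between groups for 7 of the 10 genes, as for 46.4% of all tested genes. The median log2 fold change of the 10 was -0.13, against 0.0062 over all tested genes. Since the genes were selected with this comparison known, nothing is read from these counts.

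Over 18 other fits, which included each sample left out in turn, DESeq2 and other scalings, the log2 fold changes of Id1, Id4 and Smad7 ranged from -1.81 to -1.62, from -1.21 to -0.97 and from -0.70 to -0.57. The 4 genes counted as lower were 3 once Id3 no longer passed, as happened without normal glucose replicate 3 (-0.17) or high glucose replicates 1 (-0.20), 2 (-0.18) or 3 (-0.18), and Id3 did not pass after removal of GC and length trends either. The 2 counted as higher were 1 without normal glucose replicate 3 (0.24) or high glucose replicates 1 (0.24) or 2 (0.22), when Bambi no longer passed. With library size as the only scaling 6 were lower, Id2 and Smad9 being added, and 0 were higher. These fits show how the values move and are no evidence apart from the values the genes were chosen by. Leaving out a sample also raises the error, as 2 samples then stand against 3.

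Ratios of counts within a library do not depend on how libraries are scaled. For every 100 counts of Id3 there were 24.8, 22.2 and 23.1 of Id1 in the normal glucose samples, against 8.42, 8.35 and 7.55 in the high glucose samples. For every 100 counts of Id2 there were 90.0, 73.3 and 74.2 of Id4 in the normal glucose samples, against 43.4, 37.1 and 38.4. The Id genes thus did not move by a common factor, whichever scaling is used. The same was seen among the inhibitors. For every 100 counts of Smad6 there were 155, 154 and 144 of Smad7 in the normal glucose samples, against 94.3, 88.9 and 98.2 with high glucose, so the order of the counts turned. Against Bambi, the ratio was 328 ± 13.5 with normal and 183 ± 13.0 with high glucose (SD, n = 3). Each pair sets a gene with a larger difference against one with a smaller, so the ratios restate the differences given above.

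Levels of different genes were compared as CPM per kilobase (kb) of the longest transcript. In normal glucose Id3 was highest with 255 ± 16.4 CPM per kb, followed by Id1 with 65.8 ± 7.89 (SD, n = 3). Smad5 (11.3 CPM per kb) and Id2 (10.8 CPM per kb) came next and overlapped between samples. Smad1 stood at 8.61 CPM per kb, above Smad7 at 7.47 and Smad6 at 7.13, and these last 2 overlapped. Id4 at 4.38, Bambi at 1.92 and Smad9 at 1.05 CPM per kb closed the order, each apart from its neighbours. In high glucose Smad6 (7.64 CPM per kb) stood above Smad7 (4.97 CPM per kb), and Bambi (2.30 CPM per kb) above Id4 (2.05 CPM per kb), without overlap between the samples of either pair. The place of Smad1 depends on its length. With the union of exons it fell to the seventh place in normal glucose.

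The summed level of the Id genes was 336 ± 24.9 CPM per kb with normal and 259 ± 3.78 with high glucose (SD, n = 3). Id3 made up 75.9% ± 0.866 of this sum in normal glucose and 87.5% ± 0.368 in high glucose. The share of Id1 was 19.5% ± 0.899 in normal glucose and 7.81% ± 0.437 in high glucose. Id2 held 3.22% and 3.91%, and Id4 held 1.30% and 0.79%. Expressed per length, the Id transcripts of these cultures were thus mostly Id3 in both groups, and more so in high glucose. With the union of exons as length, the share of Id1 was 25.2% and 10.5%.

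**Figure D3:**
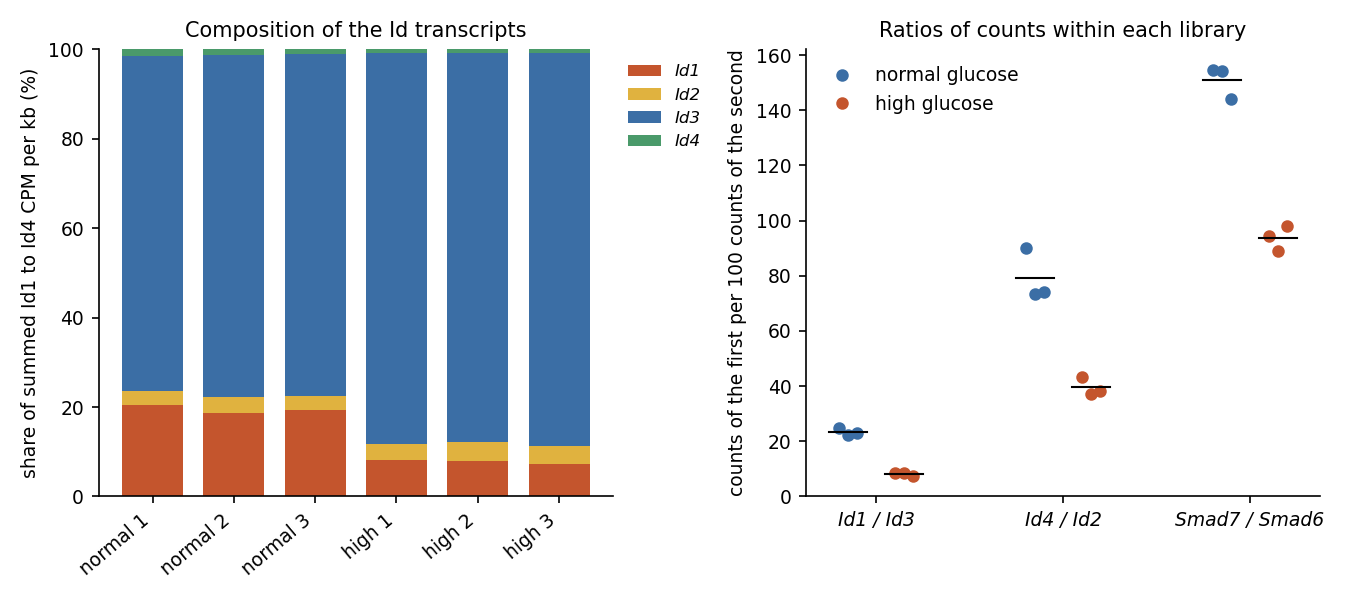
Left, share of each Id gene in the summed CPM per kb of Id1 to Id4, 1 bar for each sample. Right, counts of the first gene for every 100 counts of the second within each library, with points for samples and lines for group means. The Id1 share is 18.7% to 20.5% in normal glucose and 7.31% to 8.11% in high glucose, and none of the ratios shown overlaps between groups.

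As a description of which profiles resembled those of the members, distances were taken over the 6 samples as the root mean square difference of log2 CPM, each gene centred on its own mean, among 19014 other tested genes. Pla2g7 (distance 0.087), Eef1a2 (0.098) and Crabp1 (0.101) were nearest to Id1. Cndp2 (0.0095), Atic (0.012) and Creld1 (0.012) were nearest to Id3. For Smad7 they were Ncapd2 (0.028), Ndrg4 (0.029) and Ssc4d (0.034), and for Smad6 they were 2510039O18Rik (0.014), Rps6ka4 (0.014) and Tysnd1 (0.018). Within the 10 genes, Id4 was 221st in distance from Id1 (0.322), the nearest of the other members. Bambi and Smad5 were close to each other at 0.053, with Bambi 160th from Smad5. Their log2 fold changes were 0.26 and 0.27. Genes with like fold changes lie close by this measure, so the distances largely restate the differences given above. The points share libraries and scaling, and no test was made.

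Promoter windows of RefSeq (GRCm38.p6, 250 bases before to 50 after the start) were at hand for 7 of the members, and not for Id1. The RefSeq and GENCODE starts differ, and of the 250 bases before the start 0 lay outside annotated exons of the gene for Id3, 89 for Id2, 160 for Smad1 and 250, 208 and 91 for the 3 windows of Smad5. The windows of Id4, whose level was lower, and Smad6, whose level overlapped between groups, are shown as the 250 bases before the start on the coding strand. Capitals mark GGCGCC, a box bound by Smad1 and Smad5 in BMP target genes, and GTCT, the short Smad box, as found reading this strand.
Id4, chr13:48260866-48261115, + strand: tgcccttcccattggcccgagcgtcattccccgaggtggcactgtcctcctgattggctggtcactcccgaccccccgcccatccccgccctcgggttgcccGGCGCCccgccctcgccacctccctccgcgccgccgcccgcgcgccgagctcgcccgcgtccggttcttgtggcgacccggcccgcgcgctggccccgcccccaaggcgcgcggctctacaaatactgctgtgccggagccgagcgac
Smad6, chr9:64022060-64022309, − strand: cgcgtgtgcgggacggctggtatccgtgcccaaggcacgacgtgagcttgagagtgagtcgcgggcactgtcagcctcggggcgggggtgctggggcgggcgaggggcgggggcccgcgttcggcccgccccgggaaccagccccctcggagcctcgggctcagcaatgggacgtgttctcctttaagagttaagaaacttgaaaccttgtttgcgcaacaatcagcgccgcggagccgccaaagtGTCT
Searched on both strands over the full windows, GGCGCC was found in Id4, Id2, Smad9 and 2 of the 3 windows of Smad5. Those 2 windows overlap and hold the same box. GGCGCC was not found in those of Id3, Smad1 and Smad6, and 11.9% of all 32851 windows held it. The members' windows were 60.0% to 73.7% GC, and windows of like GC content were not compared. GTCT was found in 88.0% of all windows and CANNTG, the E box of bHLH factors, in 72.3%, so a match to either says little of a single gene. GGCGCC followed after 5 bases by GTCT, the paired arrangement, occurred in 0.0731% of windows and in none of the members' windows. A match describes letters and not binding.

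The genes around the members in the pathway were described from lists of 133 genes, 108 of which were tested. Of these, 27 were lower and 33 higher past an adjusted P value of 0.05 in edgeR's quasi-likelihood test, or 55.6%, where 31.4% of all tested genes passed. These lists too were written with earlier results of these data known, so the share is a description and no independent evidence. Among the other Smads, Smad3, of the TGF-beta arm, was higher at a log2 fold change of 0.31 (adjusted P = 0.00711). The shared partner Smad4 was higher at 0.19 (adjusted P = 0.0128). Smad2 did not pass, at 0.10 (adjusted P = 0.226). Smad4 lost its place past the threshold without normal glucose replicate 3 (0.17) or high glucose replicate 1, 2 or 3 (0.17 in each case), and with library size as the only scaling (0.07), under which Smad3 did not pass either (0.19).

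Of 10 tested BMP receptor genes, 5 were higher and 2 lower. Over all tested genes 16.9% were higher and 14.5% lower, for comparison with this and the next lists. Acvrl1, which encodes the receptor ALK1, rose from 41.0 ± 0.474 to 58.6 ± 1.21 CPM (log2 fold change 0.52, adjusted P = 2.37e-05). Bmpr2, the type II receptor, was higher by 0.34 (adjusted P = 0.00925), and Bmpr1b was lower (-0.70, adjusted P = 0.0015). Among 10 tested ligand genes, Gdf6 (-1.24, adjusted P = 2.97e-06), Bmp4 (-1.14, adjusted P = 0.000649) and Bmp6 (-0.69, adjusted P = 0.000585) fell and Bmp5 rose (0.56, adjusted P = 0.0214). That is 40% of the tested ligand genes, against 31.4% of all tested genes. Bmp4 had only 0.714 CPM in high glucose, and Bmp6 shares 224 exonic bases with Txndc5 on the opposite strand, which had far more counts. Bmpr2 no longer passed without normal glucose replicate 3 or high glucose replicate 2 (0.29 in both cases) or with library size as the only scaling (0.22). Bmp5 no longer passed without normal glucose replicate 1 (0.48) or high glucose replicate 2 (0.40) or with no filter on low counts (0.54). Of 12 tested antagonists, 6 were higher and 2 lower. Chrdl1, a chordin-like protein that binds BMP4, had the largest difference, from 1.55 ± 0.184 to 7.36 ± 0.683 CPM (2.24, adjusted P = 4.03e-07), whereas Grem1, the most abundant, fell from 1222 ± 81.5 to 841 ± 17.5 CPM (-0.54, adjusted P = 6.98e-05).

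Other genes known to respond to BMP did not all take the direction of Id1. Of 17 tested, 5 were lower and 4 higher, where 14.5% and 16.9% of all tested genes were. Hes1, a bHLH repressor also driven by Notch, fell from 26.1 ± 2.59 to 10.7 ± 0.354 CPM (-1.28, adjusted P = 1e-06), and Tmem100, a target of ALK1 in ECs, rose from 4.44 ± 0.413 to 7.91 ± 0.819 CPM (0.83, adjusted P = 0.000173). Among 20 tested regulators of Smads, 4 were lower, led by the ubiquitin ligase gene Nedd4l (-0.42, adjusted P = 0.000291), and 4 were higher, led by the phosphatase gene Ctdsp2 (0.38, adjusted P = 0.000965). Together these are 40% of the regulators, against 31.4% of all tested genes. The E proteins, which Id proteins bind, showed small values. Tcf3 was higher by 0.17 (adjusted P = 0.0302), and Tcf4 (-0.04, adjusted P = 0.612) and Tcf12 (0.05, adjusted P = 0.715) did not pass. The call of Tcf3 was lost in 11 of 18 other fits. Among these were the fits without normal glucose replicate 1 (0.14) or 2 (0.15) or high glucose replicate 1 (0.13), 2 (0.16) or 3 (0.18) and those with upper quartile factors (0.13), library size alone (0.06), no filter on low counts (0.15) or a minimum count of 50 (0.15).

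**Figure D4:**
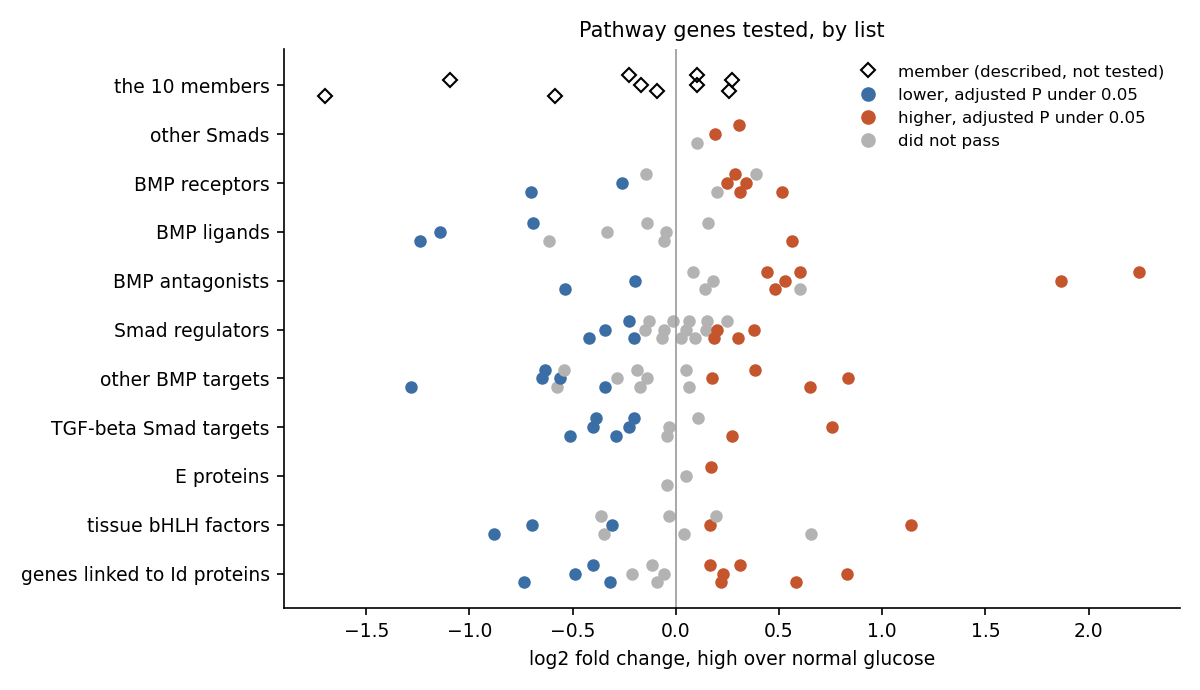
Log2 fold change of high over normal glucose for each tested gene of the pathway lists, 1 point per gene, coloured by direction where the adjusted P value was under 0.05 and grey otherwise, with the 10 members as open diamonds. Called genes lie on both sides of 0 in most lists, and Id1 is lower than any listed gene while Chrdl1 reaches 2.24.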

How the data were processed

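Bulk RNA-sequencing counts of 3 normal glucose and 3 high glucose samples were analysed. Per the paper and labels, the authors used Trimmomatic to trim, HISAT2 to align (GRCm38) and StringTie to quantify. The authors deposited whole-number counts per gene, without normalization. Versions and strand handling are not given in the sources used here, and both reads of a pair may have been counted. The columns named Control were read as normal glucose. Of 55487 identifiers, 55141 had a symbol.

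Counts were fitted with edgeR 4.0.16 in R 4.3.3, using filterByExpr (minimum count 10, minimum total 15), TMM factors, the quasi-likelihood test and Benjamini-Hochberg adjustment over 19015 genes. Standard errors were derived from the test statistic. Lengths came from GENCODE M21. The code was tested on simulated data. After a first run missed its bar for recovered changes, the bar was limited to more abundant genes. Rarer genes were recovered less often. The members and gene lists were chosen with earlier results of these data known. Named are all members, the E proteins and other Smads, and from each list called genes with the largest differences (up to 4 each way, mean log2 CPM of at least 0). Of these, the text prints a selection. Alternatives were DESeq2 1.42.0, other scalings, filters, thresholds and lengths, halved counts, the replicate number as a block, and each sample left out. Removal of trends on GC content and length (mgcv 1.9.3) was chosen after seeing the data.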

Additional observations from a re-analysis of the deposited data

How the results depend on the processing

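With library size as the only scaling, the median log2 difference over the genes tested moved from 0.0062 to -0.109. The calls were then 4884 lower and 1819 higher over all genes (72.9% lower, against 46.2% with TMM factors and 56.5% with upper quartile factors), 40 lower and 18 higher among the other pathway genes (27 and 33 with TMM factors), and 6 lower and 0 higher among the members (4 and 2 with TMM factors). Id2 (-0.21) and Smad9 (-0.34) were the members added, and Smad6 (-0.014), Smad1 (-0.010), Smad2 (-0.011) and Tcf12 (-0.066) changed sign. Smad2 and Tcf12 also changed sign after removal of GC and length trends (-0.0097 and -0.0062) and with the replicate block added to it (-0.010 and -0.0013), and Tcf12 without normal glucose replicate 1 (its values with each sample left out ran from -0.078 to 0.12). At an adjusted P value of 0.01, 1671 genes were lower and 1946 higher, with 20 of the other pathway genes higher. With each sample left out in turn, calls over all genes ranged from 2048 to 3065 lower and from 1988 to 3149 higher, the other pathway genes from 22 to 29 lower and from 20 to 33 higher, and the members from 3 to 5 lower and from 1 to 2 higher. Same-numbered samples did not deviate together (r of -0.025, 0.0038 and 0.013 across genes), so the numbers were not taken to pair them. With the replicate block, calls were 2418 lower and 2909 higher over all genes, 26 and 29 among the other pathway genes, and 3 and 2 among the members, Id3 being the member that no longer passed. Tcf3 lost its call with the block (0.17) and with GC and length trends removed as well (0.13), where Smad9 passed (-0.29). With the union of exons as length, normal glucose levels in CPM per kb were 182 for Id3, 10.1 for Smad5, 8.71 for Id2, 7.07 for Smad7, 6.61 for Smad6 and 5.19 for Smad1. The causes were not tested. Genes near 1 CPM or below, such as Bmp4 (62 to 216 counts in a library) and Bmp5 (94 to 172), rest on fewer counts than any member. Intervals cover the spread of 3 samples only.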

Other observations

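Genes that Id proteins or TGF-beta act on gave values that belong in no comparison above, from edgeR's quasi-likelihood test. Over all tested genes, 14.5% were lower and 16.9% higher past an adjusted P value of 0.05, or 31.4% together. Of 14 genes linked to Id proteins, 6 were higher and 4 lower. The cell cycle inhibitor gene Cdkn1a fell from 546 ± 27 to 328 ± 7.63 CPM (SD, n = 3; log2 fold change -0.73, adjusted P = 4.71e-06), whereas its relative Cdkn1c rose from 20.4 ± 1.52 to 36.1 ± 1.22 CPM (0.83, adjusted P = 6.68e-06). Thbs1, the gene of thrombospondin-1 and known to be repressed by Id1, fell from 9330 ± 241 to 6643 ± 257 CPM (-0.49, adjusted P = 5.8e-05). Of 11 tested tissue bHLH factors, 3 were lower and 2 higher. Twist2 was lower (-0.70, adjusted P = 0.000394), and it shares 1477 exonic bases with Gm29100 on the opposite strand, whose counts were 11.1% of its own.

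Of 11 tested TGF-beta Smad targets, 6 were lower and 2 higher, where 14.5% and 16.9% of all tested genes were. Ccn2, a matricellular protein gene, fell from 153 ± 5.45 to 107 ± 1.66 CPM (-0.51, adjusted P = 3.31e-05), and Col1a1 rose (0.76, adjusted P = 1.37e-05). Tagln was lower (-0.39, adjusted P = 0.00167) and shares exonic bases with Pcsk7 and Gm48529 on the opposite strand, whose counts were 16.1% and 11.9% of its own.

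Markers of other cell types were also summed, in CPM and as the range over the 3 samples of a group. Lymphatic endothelial markers summed to 370 to 375 in normal glucose and 232 to 241 in high glucose, with 1 of 3 tested lower. Of the 6 listed, Ccl21a and Mmrn1 stayed under 10 counts in each library. That sum thus rests on few genes and does not describe the set. Mural and smooth muscle markers summed to 924 to 1015 and 885 to 944 (4 of 9 tested lower, 2 higher). Macrophage and leukocyte markers gave 8.63 to 9.55 and 5.94 to 6.68 (2 of 4 lower). Keratinocyte markers gave 4.05 to 5.03 and 4.61 to 5.04 (1 of 3 higher). Melanocyte and Schwann markers gave 34.9 to 36.1 and 31.8 to 32.9 (3 of 6 lower, 1 higher). Skeletal muscle markers gave 5.49 to 6.75 and 2.04 to 2.24 (2 of 2 lower), and 6 of the 8 listed stayed under 10 counts in each library. Of 13 tested endothelial markers 4 were lower and 3 higher, and of 14 fibroblast markers 2 were lower and 11 higher. Among all tested genes 14.5% were lower and 16.9% higher. The part of these markers in the values of the Id and Smad genes was not tested.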
